A study of Mus musculus with 18 samples.

Results

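The BPH/2J and BPN/3J mice compared here are Schlager's inbred hypertensive strain and its normotensive control, bred by selection for high and normal blood pressure (BP) from a common crossed base. The comparison is of 6 of the 18 arrays of the series, the 3 titled as BPH mice and the 3 titled as BPN mice of the inactive, ‘trough’ BP period, chosen by title alone and not by any measured value. Each array held hypothalamic RNA of 1 male mouse, without pooling. The other 12 arrays were of 6 BPH/2J and 6 BPN/3J male mice in the active period, at ‘peak’ BP, and entered the model so that all 4 groups gave 1 estimate of the spread. All mice were kept under standard conditions with no engineered allele, and no drug is named apart from the overdose of pentobarbitone that killed them. Each strain is 1 inbred line, so a difference between the strains can belong to any locus that was fixed differently in them. The ‘trough’ mice were 18 weeks old by one label and 19 weeks old by another, and the ‘peak’ mice were 26 weeks old, so time of day and age differed together between the 2 times. The sample labels speak of the whole hypothalamus, and the study's methods of dissected paraventricular and dorsomedial parts.

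The hypothalamus sets sympathetic outflow, vasopressin release and the daily rhythm of BP, and its paraventricular nucleus holds the neurons that project to the brainstem and spinal cord centres for vascular tone. The study's design takes ‘trough’ BP as the time when the pressures of the strains differ less than at ‘peak’ BP, and the comparison asks which transcripts differ between the strains at that time. A value is the RMA signal of a probeset (the set of array probes summarized as 1 transcript) on the log2 scale. A difference is always BPH/2J minus BPN/3J on that scale, with its SE from limma, and a probeset passed at a limma p below 0.05 after Benjamini-Hochberg adjustment over all probesets. The sequences of the strains at the probes were not analysed here, and a difference in RNA level and a sequence difference under a probe cannot be told apart for any single probeset. In whole tissue, fewer cells of a type and less RNA per cell cannot be told apart either.

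For the 3 BPN/3J ‘trough’ arrays the title, the description and the BP label name the normotensive strain, but the strain label and the source name say BPH/2J. The titles were therefore set against 112 probesets that separated the strains by at least 1 in the ‘peak’ mice alone. The BPN/3J ‘trough’ arrays lay on the BPN/3J side of the ‘peak’ midpoint at 71.4, 83.0 and 85.7% of them, and the BPH/2J ‘trough’ arrays on the BPH/2J side at 87.5, 94.6 and 92.0%. The values thus went with the titles. Defining transcripts of the hypothalamus were measured on all 6 arrays, with *Pmch* (melanin-concentrating hormone) between 11.57 and 11.97 and *Hcrt* (hypocretin) between 8.64 and 9.02. Of 9 such markers *Crh*, *Nkx2-1* and *Sim1* were the dimmest, at 5.70 to 6.22, 6.36 to 6.79 and 6.68 to 7.03, and the other 6 measured 7.64 or more on every array. Markers of adjoining tissue differed between single mice. The pituitary hormone transcript *Gh* was 12.40 in BPN/3J mouse 3 and 5.69 to 7.44 in the other 5 mice. *Ttr*, the main transcript of the choroid plexus, was 13.37, 12.14 and 13.09 in BPH/2J mouse 1 and BPN/3J mice 3 and 4, and 8.25 to 9.23 in the other 3. The mean over 9 markers of cortex and hippocampus was 8.48 in BPN/3J mouse 4 and 7.25 to 7.78 in the others, so BPH/2J mouse 1 and BPN/3J mice 3 and 4 each stood apart in markers of some neighbouring tissue. The array of BPN/3J mouse 4 correlated more with the BPH/2J ‘trough’ arrays (mean r = 0.9895 across probesets) than with its own group (0.9853). BPN/3J mouse 1 had the lowest correlation with its own group among the ‘trough’ arrays (0.9827). BPN/3J ‘peak’ mice 5, 6, 7, 8 and 10 likewise correlated more with the BPH/2J ‘peak’ arrays (mouse 5: 0.9851 against 0.9831). The array of BPN/3J ‘peak’ mouse 11 did not (0.9624 against 0.9671).

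Of 21640 probesets with 1 gene symbol, 124 passed (0.573% of those tested), 84 with a higher signal in BPH/2J and 40 with a lower signal. They stood for 122 of 19937 genes (0.612%), 82 higher (0.411%) and 40 lower (0.201%), and 9 of the 122 are predicted or unnamed genes, 4 of them higher and 5 lower. A further 60 probesets passed that carry no single symbol. The differences that passed had a median size of 0.78, from 0.36 upwards, against a median size of 0.14 over all genes. The difference was 2-fold or more in 23 of the higher and 15 of the lower genes. In all 124 probesets the 3 mice of one strain lay wholly above the 3 of the other, which was so in 22.5% of all probesets. The numbers depended on the arrays: 41 genes, 25 higher and 16 lower, passed with all arrays and also whichever single ‘trough’ array was left out, and without 1 array the count ran from 49 (without BPH/2J mouse 3) to 141 (without BPN/3J mouse 4), with 66 without BPH/2J mouse 1, 50 without BPH/2J mouse 2, 63 without BPN/3J mouse 1 and 57 without BPN/3J mouse 3.

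**Figure D1:**
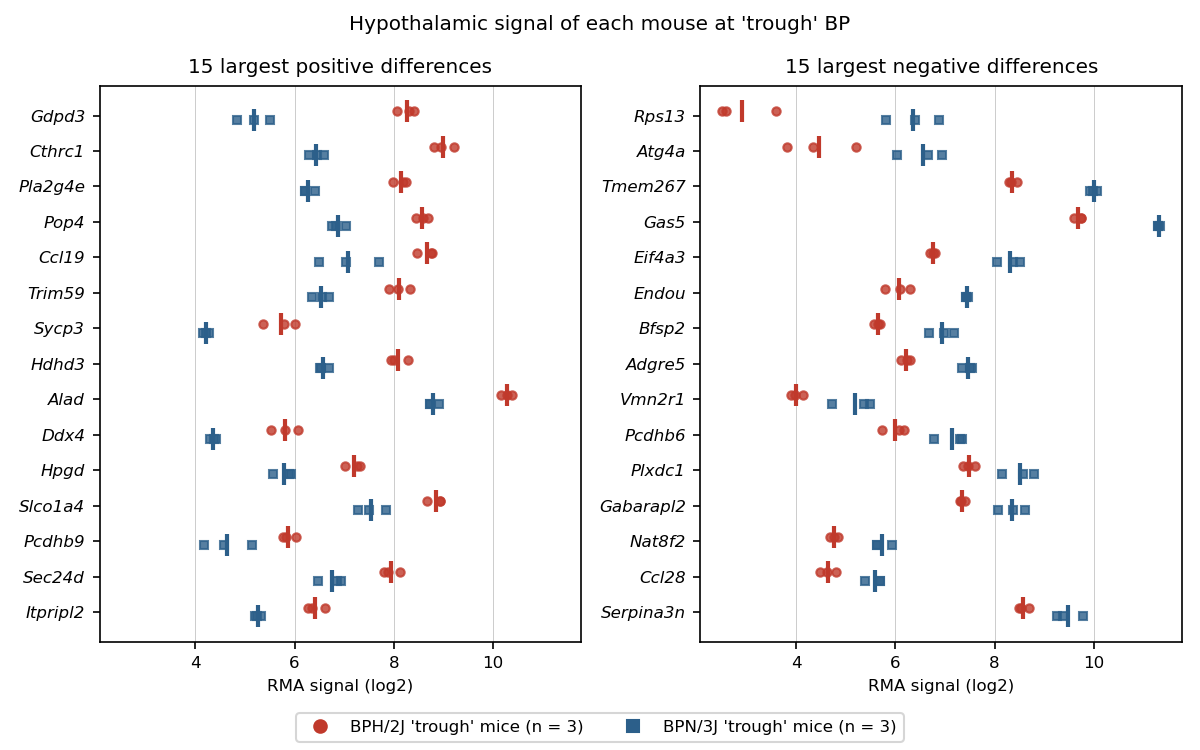
RMA signal (log2, horizontal axis) of each ‘trough’ mouse for the 15 named genes with the largest positive and the 15 with the largest negative difference among those that passed. Circles are BPH/2J and squares BPN/3J mice, with vertical ticks at the means of 3. In none of the 30 genes do the mice of the strains overlap, and *Gdpd3* and *Rps13* show the widest gaps.

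Enzymes of lipid and prostaglandin metabolism were among the genes with the largest positive differences. *Gdpd3* encodes a glycerophosphodiester phosphodiesterase that releases lysophosphatidic acid. Its signal was 8.07, 8.41 and 8.31 in the BPH/2J mice and 5.51, 4.84 and 5.18 in the BPN/3J mice, a difference of 3.08 (SE 0.24, 8.48-fold, limma adjusted p = 1.69e-06). *Pla2g4e*, a cytosolic phospholipase that also makes precursors of endocannabinoid lipids, measured 7.99, 8.24 and 8.19 against 6.41, 6.20 and 6.21, and thus 1.87 higher (SE 0.12, limma adjusted p = 2.65e-07). *Hpgd*, which inactivates prostaglandins, measured 7.02, 7.32 and 7.26 against 5.56, 5.92 and 5.89, and was 1.41 higher (SE 0.16, limma adjusted p = 8.9e-05). All 3 genes had BPH/2J mice tightly grouped and more than 1 log2 unit above every BPN/3J mouse. *Nudt19*, which hydrolyses coenzyme A and its fatty acyl esters, was 1.14 higher (SE 0.12, limma adjusted p = 8.51e-05). *Me1*, the malic enzyme that supplies NADPH for lipid synthesis, was 1.04 higher at 1 of its 2 probesets (limma adjusted p = 0.0397), and its brighter probeset differed by -0.01 and did not pass. *Etnppl*, a phospho-lyase of phosphoethanolamine found in astrocytes, was 0.74 higher (limma adjusted p = 0.0326). These 6 genes, grouped after their values were seen, also passed in the same direction in the ‘peak’ mice. *Me1* and *Etnppl* did not hold without single arrays, with adjusted p up to 0.199 (without BPN/3J mouse 3) and 0.178 (without BPH/2J mouse 3).

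Genes of heme, iron-sulfur and mitochondrial function formed the next set. *Alad*, the aminolevulinate dehydratase of heme synthesis, measured 10.29, 10.17 and 10.39 in BPH/2J and 8.74, 8.92 and 8.74 in BPN/3J, a difference of 1.48 (SE 0.11, 2.8-fold, limma adjusted p = 6.17e-07). *Slc25a37* (mitoferrin), the iron importer of mitochondria, measured 7.58, 7.50 and 7.66 against 6.44, 6.70 and 6.69 and was 0.97 higher (SE 0.18, limma adjusted p = 0.0189). The iron-sulfur cluster genes *Nfu1* and *Nfs1* were 0.82 and 0.42 higher (limma adjusted p = 0.00933 and 0.0168), and a second, dimmer probeset of *Nfu1* differed by 0.17 (limma adjusted p = 0.768). Protein import, ubiquinone synthesis and adenine nucleotide exchange were each represented. *Timm9* and *Chchd4*, of the import path into the intermembrane space, were 0.46 and 0.61 higher, and *Coq7*, of ubiquinone synthesis, 0.54 higher. *Slc25a31*, an ADP/ATP carrier best known from the testis, was 0.92 higher, measuring 5.01, 5.21 and 5.23 against 4.43, 4.07 and 4.18. *Antkmt* and *Atpsckmt*, which methylate the ADP/ATP carriers and the c subunit of ATP synthase, were 0.73 and 1.08 higher (SE 0.12 and 0.13, limma adjusted p = 0.00447 and 0.000288). *Ucp3*, a mitochondrial uncoupling protein, was 0.61 higher and *Rdh13*, a mitochondrial retinol dehydrogenase, 0.47 higher.

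Ribosomal proteins of mitochondria belonged to a list of the whole family. Of its 77 measured members 3 passed, all higher in BPH/2J, against 0.381% of all genes called higher at their brightest probeset. *Mrpl20* measured 8.44, 8.58 and 8.53 against 7.49, 7.38 and 7.67, a difference of 1.00 (SE 0.14, limma adjusted p = 0.000963), and *Mrpl9* and *Mrpl15* differed by 0.58 and 0.47 (limma adjusted p = 0.0135 and 0.0267). The difference was positive in 67 of the 77 (87%), with a median of 0.12, against 52.2% and 0.01 over all genes. Genes of like brightness came closer to the family, whose median signal was 8.54. Of all genes with a mean signal from 7.01 to 8.53, 73.5% were positive (median 0.11), and from 8.53 to 13.60, 79.6% (median 0.09). After quantile normalization of the arrays the median was 0.05 and 44 were positive, so the shift of the family moved with the scaling. Genes of oxidative phosphorylation had 0 of 119 members past the threshold and a median of 0.06. Of the 15 genes named for heme, iron-sulfur or mitochondrial roles, which were gathered after their values were seen, all 15 were higher by 0.42 to 1.48 and 14 also passed at ‘peak’ BP. *Timm9* was the exception there (0.16, limma adjusted p = 0.386). *Aldh7a1*, a lysine-degrading dehydrogenase partly in mitochondria, went the other way by -0.69 (SE 0.08, limma adjusted p = 0.000218). Only *Alad*, *Mrpl20*, *Antkmt* and *Atpsckmt* of the 15 passed whichever array was left out. For the others the adjusted p rose as far as 0.213, that of *Coq7* without BPH/2J mouse 2.

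*Cthrc1*, a secreted protein of matrix and Wnt signalling, measured 8.96, 8.81 and 9.21 in BPH/2J and 6.59, 6.45 and 6.28 in BPN/3J. The difference was 2.55 (SE 0.17, 5.87-fold, limma adjusted p = 2.65e-07), and the ranges stood over 2 log2 units apart. *Fzd6*, a Wnt receptor and the next measured gene on the chromosome, measured 8.23, 8.16 and 8.06 against 6.96, 7.25 and 7.33 and was 0.97 higher (SE 0.18, limma adjusted p = 0.0135). *Sec24d*, a cargo adaptor of the COPII coat that carries collagen out of the endoplasmic reticulum, was 1.18 higher (SE 0.12, limma adjusted p = 3.04e-05). *Ppp1r12b*, a targeting subunit of myosin phosphatase, which relaxes contractile cells, was 0.96 higher at 1 of its 7 probesets (SE 0.14, limma adjusted p = 0.00148). The other probesets of *Ppp1r12b* differed by 0.18 to 0.37 and none of them passed. Without BPN/3J mouse 1 the adjusted p of *Fzd6* was 0.0981, and *Cthrc1*, *Sec24d* and *Ppp1r12b* passed without any single array.

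RNA-processing genes moved in both directions. *Pop4*, a subunit of the ribonucleases P and MRP, measured 8.45, 8.58 and 8.69 against 7.03, 6.75 and 6.84, and was 1.70 higher in BPH/2J (SE 0.15, limma adjusted p = 7.72e-06). The poly(A) ribonuclease gene *Parn*, the box H/ACA assembly factor *Naf1*, the ribonuclease H subunit *Rnaseh2b* and the ribosome assembly factor *Rrs1* were higher by 0.63, 0.70, 0.88 and 0.59. *Gas5*, a non-coding transcript that hosts small nucleolar RNAs, measured 9.74, 9.74 and 9.60 against 11.30, 11.34 and 11.29, and so -1.62 in BPH/2J (SE 0.18, limma adjusted p = 0.000115). That probeset alone of the 4 for *Gas5* passed, and the others differed by -0.33, -0.17 and 0.04. *Eif4a3*, a helicase of the exon junction complex, measured 6.69, 6.79 and 6.76 against 8.05, 8.52 and 8.38, a difference of -1.57 (SE 0.30, limma adjusted p = 0.0182). *Snrpe*, a core spliceosomal protein, and *Snapc1*, of the complex that transcribes small nuclear RNAs, were lower by -0.65 and -0.64 (limma adjusted p = 0.0429 and 0.0364). Of these 9 genes, grouped after the fact, 6 also passed at ‘peak’ BP, and *Pop4* and *Gas5* passed without any single array. The limma adjusted p of *Parn* and *Rnaseh2b* reached 0.132 and 0.0911 without BPN/3J mouse 1, and that of *Rrs1* 0.18 without BPH/2J mouse 2. *Eif4a3* reached 0.106 without BPN/3J mouse 3 and *Naf1* 0.225 without BPN/3J mouse 1. *Snrpe* and *Snapc1* passed in 0 of the 6 fits without 1 array.

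*Sycp3* and *Ddx4*, known from meiotic and germ cells, were higher in BPH/2J from low levels. *Ddx4*, an RNA helicase, measured 5.52, 6.07 and 5.80 against 4.42, 4.30 and 4.37 (difference 1.43, SE 0.21, limma adjusted p = 0.0024). *Sycp3*, of the synaptonemal complex, measured 5.79, 6.01 and 5.36 against 4.16, 4.21 and 4.28 (2.83-fold, SE of the log2 difference 0.27, limma adjusted p = 0.0126), and without BPH/2J mouse 2 its adjusted p was 0.0896. *Trim59*, a ubiquitin ligase gene, measured 8.08, 8.33 and 7.91 against 6.35, 6.69 and 6.56, a difference of 1.58 (SE 0.25, limma adjusted p = 0.004), and it passed without any single array.

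*Atg4a*, the protease that processes ATG8 proteins, and *Gabarapl2*, an ATG8 protein, were each lower at 1 probeset, and at the brightest probeset of the gene neither passed. *Atg4a* measured 3.81, 5.20 and 4.33 in BPH/2J and 6.03, 6.66 and 6.95 in BPN/3J (difference -2.10, SE 0.41, limma adjusted p = 0.0259). Its other probeset differed by -0.56 and did not pass. *Gabarapl2* measured 7.41, 7.30 and 7.32 against 8.08, 8.61 and 8.37 (difference -1.01, limma adjusted p = 0.0103), but its brighter probeset differed by 0.01. The same held for *Rps13*, a ribosomal protein gene with the largest negative difference, -3.46 (SE 0.45, limma adjusted p = 0.000549), at a probeset that measured 2.59, 3.59 and 2.51 against 5.82, 6.39 and 6.88. The 2 other probesets of *Rps13* differed by -0.50 and by 0.34 and neither passed, so no direction for *Rps13* as a gene can be given. Many copies of ribosomal protein genes exist in the genome, and signal from a copy cannot be told apart here. *Atg4a* and *Gabarapl2* had adjusted p of 0.138 (without BPH/2J mouse 3) and 0.0765 (without BPN/3J mouse 3), and *Rps13* passed without any single array.

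Of 6 called genes with roles in immune signalling 1 was higher and 5 were lower in BPH/2J, the grouping again made after the values were seen. *Ccl19*, a chemokine that guides lymphocytes and dendritic cells, measured 8.78, 8.47 and 8.76 against 7.70, 7.03 and 6.50 at the probeset that passed (difference 1.60, SE 0.22, limma adjusted p = 0.000897). A brighter probeset gave 1.33 (limma adjusted p = 0.0817) and the other two 0.58 and -0.03. Mouse genomes carry several near-identical copies of *Ccl19*, which these probesets may share. *Ccl28*, a mucosal chemokine, measured 4.48, 4.81 and 4.62 against 5.69, 5.38 and 5.69 (difference -0.94, SE 0.12, limma adjusted p = 0.000584). *Adgre5*, the leukocyte adhesion receptor CD97, measured 6.24, 6.11 and 6.30 against 7.34, 7.50 and 7.54 (difference -1.24, SE 0.09, limma adjusted p = 7.46e-07), the second most certain of the lower genes after *Tmem267*. *Ifngr2*, a chain of the interferon gamma receptor, was -0.77 (SE 0.12, limma adjusted p = 0.00376). *Serpina3n*, an acute-phase protease inhibitor of reactive astrocytes, was -0.91 (SE 0.20, limma adjusted p = 0.049) and *Tnfrsf8* (CD30) -0.66 (limma adjusted p = 0.0457). *Serpina3n* and *Tnfrsf8* passed in none of the fits without 1 array, with adjusted p up to 0.2 and 0.301 (without BPH/2J mice 2 and 3). In the fixed list of chemokines and cytokines *Ccl28* alone of 91 passed at the brightest probeset, against 0.186% of all genes called lower there, and 72 of 91 differences were negative with a median of -0.16. Dim transcripts as a whole differed the same way. With all genes in 4 bins of like number from dim to bright, the medians were -0.12, -0.10, 0.11 and 0.09. Without BPN/3J mouse 1 these became -0.06, -0.07, 0.04 and 0.05, without BPN/3J mouse 4 -0.18, -0.13, 0.15 and 0.13, and after quantile normalization -0.06, -0.03, 0.04 and 0.02.

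Several of the remaining lower genes were among the most certain. *Tmem267* (a transmembrane protein of unclear role) measured 8.34, 8.30 and 8.45 against 9.93, 9.99 and 10.07, a difference of -1.64 (SE 0.12, limma adjusted p = 6.17e-07). *Endou*, an endoribonuclease, measured 6.29, 6.10 and 5.80 against 7.43, 7.43 and 7.46 (difference -1.37, limma adjusted p = 0.000133). *Bfsp2*, a lens filament protein, differed by -1.31 (limma adjusted p = 0.000342). The 3 BPN/3J values of *Endou* lay within 0.03 of each other, and *Tmem267*, *Endou* and *Bfsp2* passed without any single array. Also lower were *Plxdc1* (-1.03), *Vmn2r1* (-1.18), *Atp7b*, the copper-exporting ATPase (-0.83), and *Manf*, a secreted factor of endoplasmic reticulum stress (-0.46, limma adjusted p = 0.0116). These 4 lost their call without some arrays, with adjusted p up to 0.142, 0.131, 0.0662 and 0.0866, in each case without BPN/3J mouse 3 except *Atp7b*, where it was BPH/2J mouse 3. *Nat8f2*, of the family of N-acetyltransferase 8, was -0.97 (limma adjusted p = 0.0047) and passed without any single array.

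Among potassium channels 1 of 86 was higher and 1 lower, against 0.381% and 0.186% of all genes at their brightest probeset. *Kcnn2*, a small-conductance calcium-activated channel that shapes firing after bursts, measured 8.52, 8.85 and 8.83 against 7.85, 8.31 and 8.30 (difference 0.58, SE 0.12, limma adjusted p = 0.0464). *Kcnk1*, a pore-forming subunit of the background leak family, measured 10.12, 10.05 and 10.18 against 10.46, 10.57 and 10.54 (difference -0.41, SE 0.08, limma adjusted p = 0.0348). Leaving out BPH/2J mouse 3 took *Kcnn2* to 0.276 and leaving out BPH/2J mouse 2 took *Kcnk1* to 0.2. None of 43 calcium and sodium channels, 16 GABA-A receptor subunits, 16 ionotropic glutamate receptor subunits or 30 ion pumps and exchangers passed. In the protocadherin list *Pcdhb9* was 1.24 higher and *Pcdhb6* -1.14 (limma adjusted p = 0.0191 and 0.0101), neighbouring and closely alike members of the beta cluster, whose probesets can share signal. With 1 array left out their adjusted p reached 0.131 (BPH/2J mouse 3) and 0.0703 (BPN/3J mouse 3).

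**Figure D2:**
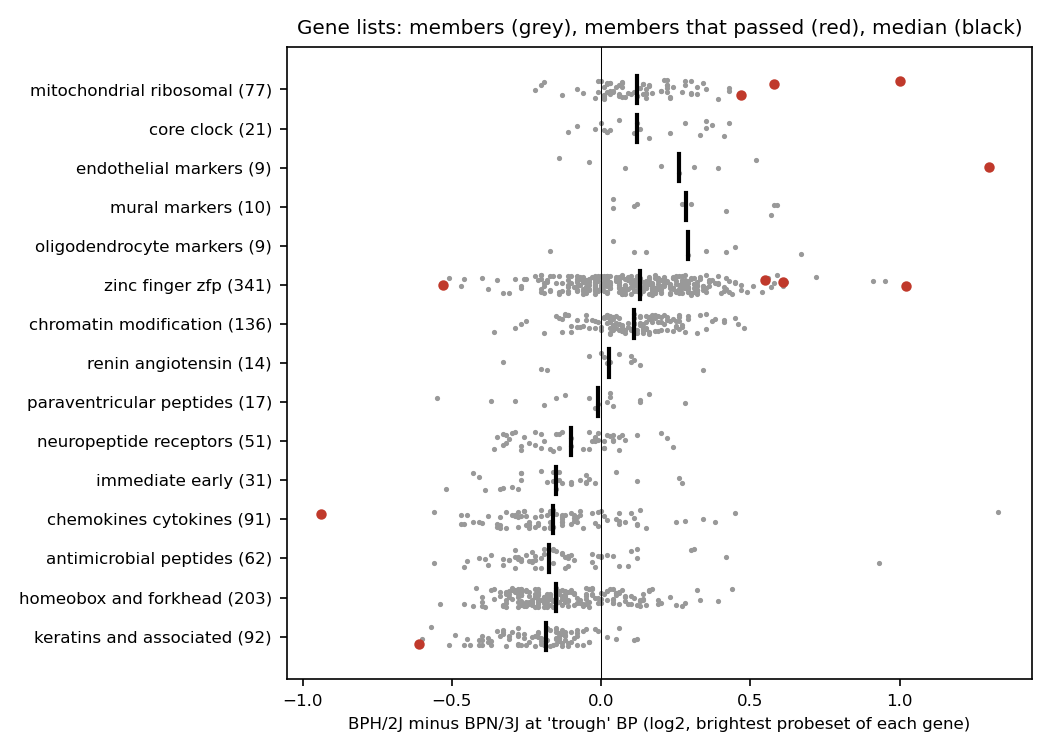
Difference of the strains at ‘trough’ BP (log2, horizontal axis) for every measured member of 15 gene lists, with the number of members in brackets. Grey dots are members, red dots those that passed and black bars the medians; the medians ran from -0.19 in keratins to 0.29 in oligodendrocyte markers, and most lists have 0 or 1 red dot.

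In the lists of neuropeptide and pressor genes 0 members passed, at a background of 0.567% of all genes called at their brightest probeset, so that a count of 0 in lists of this length is near the background. Among 17 peptides and regulators of the paraventricular nucleus 0 passed (median -0.01). *Avp*, vasopressin, measured 8.22, 8.03 and 7.79 in BPH/2J and 7.92, 7.85 and 8.38 in BPN/3J, a difference of -0.04 with an SE of 0.56. *Oxt*, oxytocin, measured 9.17, 9.22 and 8.69 against 9.80, 9.21 and 9.71 (-0.55, SE 0.64). The mice of the strains overlapped in both genes, and the SEs come from the spread within all 4 groups. *Crh* differed by 0.03 (SE 0.31) and *Trh* by 0.02 (SE 0.57). *Hcrt*, hypocretin, outside that list of 17, differed by 0.15 (SE 0.43, limma adjusted p = 0.927), and its mice overlapped. *Zbtb16*, a zinc finger repressor, measured 8.08 ± 0.10 (SD, n = 3) in BPH/2J and 7.64, 8.62 and 8.53 in BPN/3J (-0.18, SE 0.24), the BPN/3J mice lying on both sides of the BPH/2J mice. Among 14 genes of the renin-angiotensin system 0 passed. *Agt*, angiotensinogen, measured 10.76, 10.79 and 10.77 against 10.56, 10.87 and 10.80 (0.03, SE 0.11), and *Agtr1a*, a receptor of angiotensin II, differed by -0.04 (SE 0.21). Of 51 neuropeptide receptors 0 passed, and of 21 genes of catecholamine and biopterin metabolism 0. The largest difference there was in *Aldh1a1*, the aldehyde dehydrogenase of dopamine neurons and of retinoic acid synthesis, at 10.76, 11.14 and 11.07 against 9.49, 9.62 and 8.59 (1.76, SE 0.43, limma adjusted p = 0.093). Its groups did not overlap, but it did not pass.

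None of 21 clock genes passed, where 0.567% of all genes did at their brightest probeset, so a count of 0 is near the background. Of the 21 differences 18 were positive, with a median of 0.12. The median signal of the list was 9.14. Of all genes with a mean signal from 8.53 to 13.60, 79.6% differed positively, with a median of 0.09. *Dbp*, an output gene of the clock, measured 9.64, 9.71 and 9.84 against 9.03, 9.37 and 9.49 (0.43, SE 0.12, limma adjusted p = 0.177). *Nr1d1* and *Nr1d2*, the REV-ERB repressors, differed by 0.41 and 0.28 (limma adjusted p = 0.26 and 0.233). In each of the 3 genes the lowest BPN/3J value was that of mouse 1. Without that mouse the median of the list was 0.03, without BPN/3J mouse 4 it was 0.21, and after quantile normalization 0.04 with 12 positive. Of 31 immediate early genes, which report recent neuronal firing, 0 passed, again near the background of 0.567%. Of their differences 27 were negative with a median of -0.15, and after quantile normalization the median was -0.15 with 5 positive. The median signal of this list was 7.13. Of all genes with a mean signal from 7.01 to 8.53, 73.5% differed positively, with a median of 0.11. *Egr2* measured 5.83, 5.79 and 5.89 against 6.18, 6.04 and 6.85 (-0.52, limma adjusted p = 0.338). The highest value was that of BPN/3J mouse 4, the mouse with the high cortical and hippocampal markers, and without it the median of the list was -0.04, while without BPN/3J mouse 1 it was -0.23. The part of the neighbouring tissue in these lists was not tested.

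Of the blood vessel markers 1 of 9 endothelial and 0 of 10 mural cell genes passed. *Slco1a4*, the organic anion transporter of the blood-brain barrier, measured 8.68, 8.93 and 8.94 against 7.28, 7.50 and 7.85, a difference of 1.30 (SE 0.17, 2.47-fold, limma adjusted p = 0.000469). Of all genes 0.567% passed at their brightest probeset. Of these 9 markers 7 differed positively, with a median of 0.26, and their mean was 8.80, 8.79 and 8.87 in BPH/2J against 8.48, 8.50 and 8.52 in BPN/3J. The median signal of this list was 8.71. Of all genes with a mean signal from 8.53 to 13.60, 79.6% differed positively, with a median of 0.09, so the count of 7 was near that share. *Tek*, *Pecam1* and *Kdr*, receptors and adhesion molecules of the endothelium, differed by 0.52, 0.31 and 0.39 (limma adjusted p = 0.267, 0.451 and 0.492), whereas *Cldn5*, of the tight junctions, differed by -0.14. All 10 mural cell markers differed positively and 0 passed, with a median of 0.28. Their median signal was 7.36, and of all genes from 7.01 to 8.53, 73.5% differed positively, with a median of 0.11. *Pdgfrb*, the pericyte receptor, measured 8.55, 8.46 and 8.42 against 8.05, 8.08 and 8.04 (0.42, SE 0.12, limma adjusted p = 0.188). Outside the lists, the vascular adhesion receptor genes *Adgrl4* and *Adgrf5*, the collagen receptor subunit *Itga1* and the lipid transporter *Abca8a* passed, with differences of 0.88, 0.51, 0.74 and 0.88 (limma adjusted p = 0.0393, 0.0416, 0.0126 and 0.0399). These 4 genes were picked after their values were seen, so their shared direction says nothing about vessel genes as a set. Without BPH/2J mouse 3, the array that mattered most here, their adjusted p was 0.267, 0.281, 0.112 and 0.273. In the ‘peak’ mice *Slco1a4* differed by 0.62 and passed (limma adjusted p = 0.00931), and its change between the times did not pass (limma adjusted p = 0.589). The medians there were 0.02 in both lists, and the differences of *Adgrl4*, *Adgrf5*, *Itga1* and *Abca8a* were 0.14, 0.00, 0.29 and 0.14, none of which passed. The change between the times did not pass for any of the 4 (limma adjusted p = 0.589 each). Oligodendrocyte markers, of which 0 of 9 passed, had a median of 0.29 (0.12 without BPN/3J mouse 4 and 0.47 without BPN/3J mouse 3), and the part of tissue composition in these differences was not tested.

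**Figure D3:**
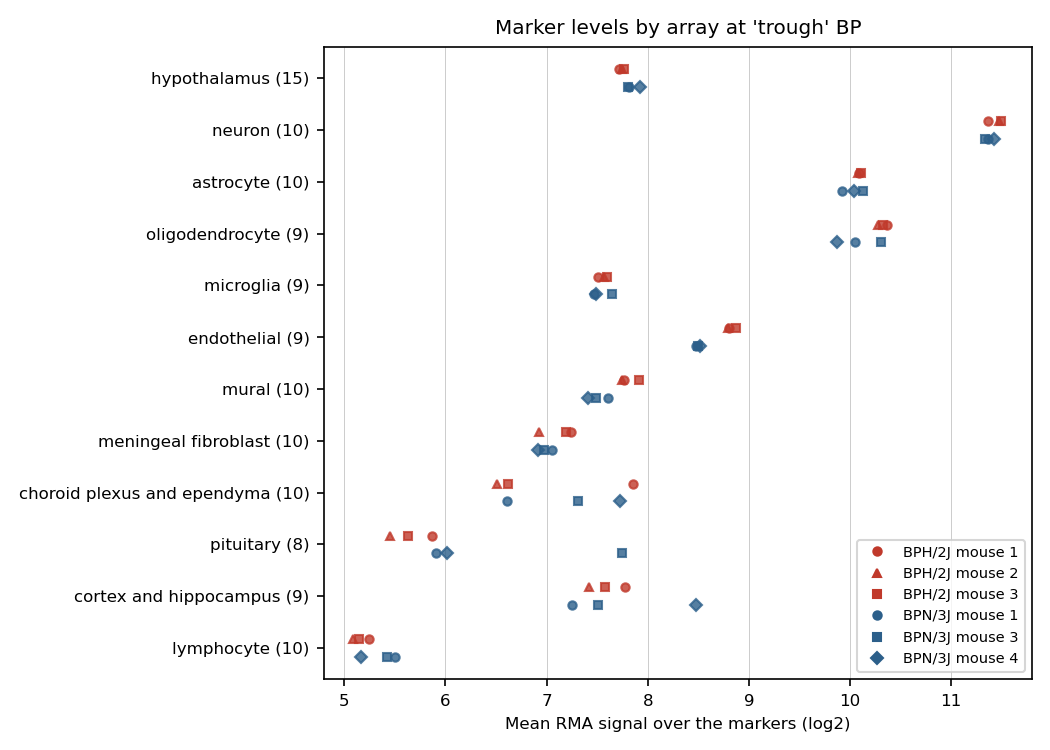
Mean RMA signal (log2, horizontal axis) over each list of cell type or region markers, for each ‘trough’ mouse, with the number of markers in brackets. Red symbols are BPH/2J and blue symbols BPN/3J mice, with 1 shape per mouse number. The endothelial means separate at 8.79 to 8.87 against 8.48 to 8.52, and those of the mural, pituitary and hypothalamus markers also do not overlap between the strains. Each of these lists has an exact permutation p = 0.1, the smallest that 3 against 3 mice can give. BPN/3J mouse 3 stands at 7.75 in the pituitary markers and BPN/3J mouse 4 at 8.48 in the cortical markers.

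The remaining lists held few called genes. In all 60 lists were counted, 45 of pathways and families and 15 of markers, and 47 had no member past the threshold. Of 200 genes of glutathione and detoxification *Mgst3* and *Gstk1*, both glutathione transferases, were 0.62 and 0.69 higher and *Aldh7a1* lower, against 0.381% of all genes called higher and 0.186% called lower. Of 341 zinc finger genes *Zfp830*, *Zfp236* and *Zfp810* were higher by 1.02, 0.61 and 0.55, and *Zfp14* was lower by -0.53, against the same shares. None of the 3 higher ones held without every array (adjusted p up to 0.322, 0.187 and 0.215), nor did *Zfp14* (0.0824 without BPH/2J mouse 2), *Mgst3* (0.129) or *Gstk1* (0.239, both without BPH/2J mouse 3). Of 203 homeobox and forkhead genes, 43 interferon-induced genes, 29 genes of the major histocompatibility complex, 20 glucocorticoid-responsive genes, 61 cytosolic ribosomal proteins and 296 microRNA transcripts, 0 passed at the brightest probeset.

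Some genes that passed lay beside each other. Of the 122 genes, 28 (23.0%) fell into 13 runs in which neighbours were at most 5 measured genes apart, and 5.49% of all 19852 placed genes, called or not, had another called gene within that distance. In 9 runs all members differed in 1 direction and in 4 in both. The runs of 3 were *Itpripl2*, *Coq7* and *Tmc7*, all higher (1.15, 0.54 and 0.55), and *Tmem267*, *Ccl28* and a predicted gene, all lower (-1.64, -0.94 and -1.52). *Itpripl2* passed at 1 probeset of 2 (limma adjusted p = 0.0397, and up to 0.251 without BPH/2J mouse 3), and the other differed by -0.02. Opposite directions occurred in *Galt* and *Ccl19* (-0.58 and 1.60) and in the protocadherins above. *Hdhd3*, a gene for a hydrolase of the haloacid dehalogenase fold, and *Alad*, its next measured neighbour, differed alike. *Hdhd3* measured 8.01, 7.94 and 8.28 against 6.54, 6.51 and 6.69, a difference of 1.49 (SE 0.12, limma adjusted p = 2.41e-06) beside the 1.48 of *Alad*. *Abhd14a* and *Abhd14b*, hydrolase genes that begin close together on opposite strands, differed by -0.79 and -0.81 (SE 0.10 and 0.15, limma adjusted p = 0.00043 and 0.0178), of which *Abhd14b* did not hold without BPH/2J mouse 2 (0.13) and *Abhd14a* passed without any single array.

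**Figure D4:**
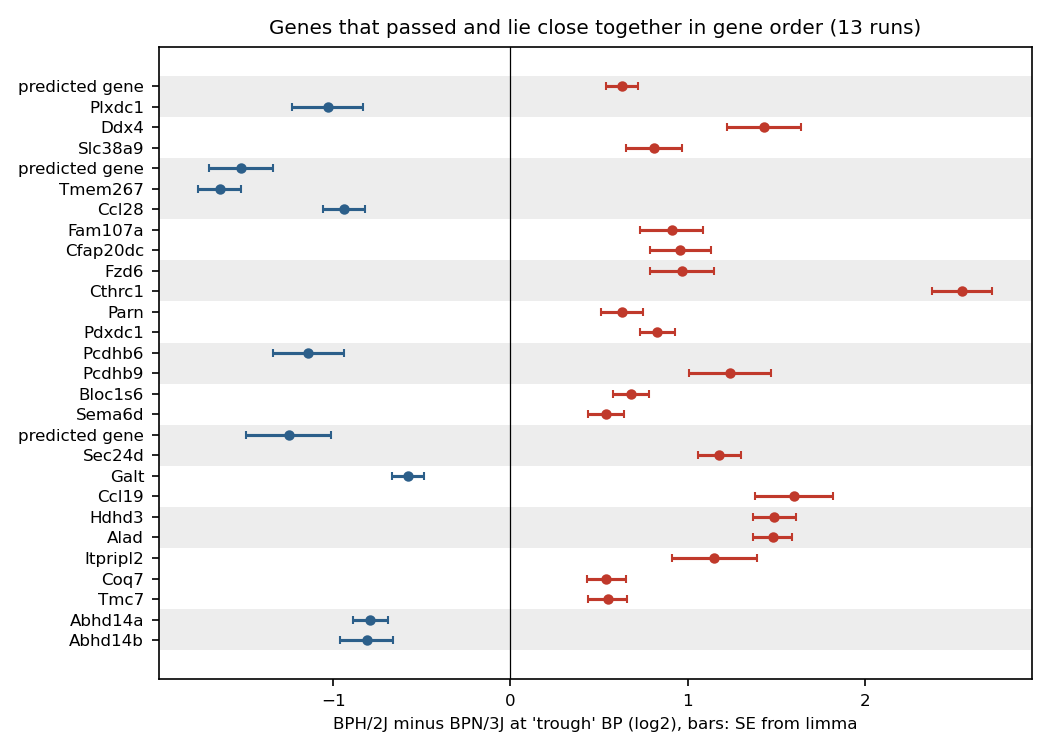
Difference of the strains at ‘trough’ BP (log2, horizontal axis; bars are SEs from limma) for the 28 called genes that lie in 13 runs along the chromosomes. Shading separates runs; red marks a higher and blue a lower signal in BPH/2J, and *Hdhd3* and *Alad*, and *Abhd14a* and *Abhd14b*, have nearly equal values.

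The start regions of these pairs are shown because their members differed alike. They are RefSeq windows of build GRCm38.p6, from 250 bases before to 50 bases after the start of the gene, written 5′ to 3′ on the strand of the gene. Capitals mark GGGCGG, the GC box, on either strand (CCGCCC on the other), which 35.7% of the 32851 windows in the table hold.
Hdhd3 (chr4:62502151-62502450, minus strand): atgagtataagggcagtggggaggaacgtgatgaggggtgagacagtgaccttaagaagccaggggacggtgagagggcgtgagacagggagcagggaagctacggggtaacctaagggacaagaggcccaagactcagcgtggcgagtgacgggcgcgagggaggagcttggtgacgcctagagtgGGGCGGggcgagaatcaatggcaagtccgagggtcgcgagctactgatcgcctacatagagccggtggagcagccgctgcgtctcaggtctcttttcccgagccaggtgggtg
Alad (chr4:62520014-62520313, minus strand): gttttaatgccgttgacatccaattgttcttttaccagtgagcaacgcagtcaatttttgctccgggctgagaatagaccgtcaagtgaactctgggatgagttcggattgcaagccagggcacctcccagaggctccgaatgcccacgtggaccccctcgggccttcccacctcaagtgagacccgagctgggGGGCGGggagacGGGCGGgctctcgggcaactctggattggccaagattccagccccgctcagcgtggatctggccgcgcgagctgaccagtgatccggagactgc
Abhd14a (chr9:106447629-106447928, minus strand): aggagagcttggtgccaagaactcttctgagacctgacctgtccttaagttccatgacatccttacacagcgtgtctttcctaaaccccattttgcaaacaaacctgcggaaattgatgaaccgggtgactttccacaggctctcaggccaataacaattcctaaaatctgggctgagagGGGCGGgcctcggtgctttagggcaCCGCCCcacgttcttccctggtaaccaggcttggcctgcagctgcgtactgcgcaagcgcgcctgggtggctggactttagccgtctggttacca
Abhd14b (chr9:106448390-106448689, plus strand): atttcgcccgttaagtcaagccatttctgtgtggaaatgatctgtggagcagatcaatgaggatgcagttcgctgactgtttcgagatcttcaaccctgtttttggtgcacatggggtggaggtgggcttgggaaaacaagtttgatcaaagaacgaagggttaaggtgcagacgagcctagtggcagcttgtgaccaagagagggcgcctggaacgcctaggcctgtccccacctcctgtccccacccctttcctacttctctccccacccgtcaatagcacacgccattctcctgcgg
The windows of *Hdhd3* and *Alad*, both on the minus strand, hold 1 and 2 matches, and those of *Abhd14a* and *Abhd14b* 2 and 0. The reference strain's sequence is given, and that of BPH/2J and BPN/3J was not analysed here.

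The ‘peak’ mice, which shared no animal with the ‘trough’ mice, allowed the same strain difference to be set beside that at ‘trough’ BP. Both differences were tested with the same estimate of the spread from all 4 groups, so the calls at both times were not independent. Of the 124 probesets, 120 differed in the same direction at both times and 92 passed at both. These 92 were 74.2% of the probesets called at ‘trough’ and 30.6% of the 301 called at ‘peak’ BP, where 1.39% of probesets passed. *Gdpd3*, *Cthrc1*, *Alad*, *Hdhd3*, *Tmem267* and *Adgre5* differed by 3.59, 2.55, 1.42, 1.48, -1.81 and -1.26 in the ‘peak’ mice. The remaining 32 did not pass at ‘peak’ BP, among them *Trim59* with 0.47 (limma adjusted p = 0.317) and *Sema6d*, an axon guidance gene, with 0.10 beside 0.54 at ‘trough’ BP (limma adjusted p there 0.0153, and 0.11 without BPH/2J mouse 3). The 4 of opposite sign were *Rrs1* (-0.03), *Bpifb1* (0.03), *Dock6* (-0.25) and *Dnajc5b* (0.32). *Dock6* has 15 probesets, of which the 1 that passed at ‘trough’ BP differed by 0.56 and the others by -0.32 to 0.25. The difference between the strain differences passed for 0 genes in limma, with 1742 at an unadjusted p below 0.05, and its smallest adjusted p among the 124 was 0.177, for *Dock6* and *Dnajc5b*. No strain difference was thus shown to be particular to ‘trough’ BP.

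**Figure D5:**
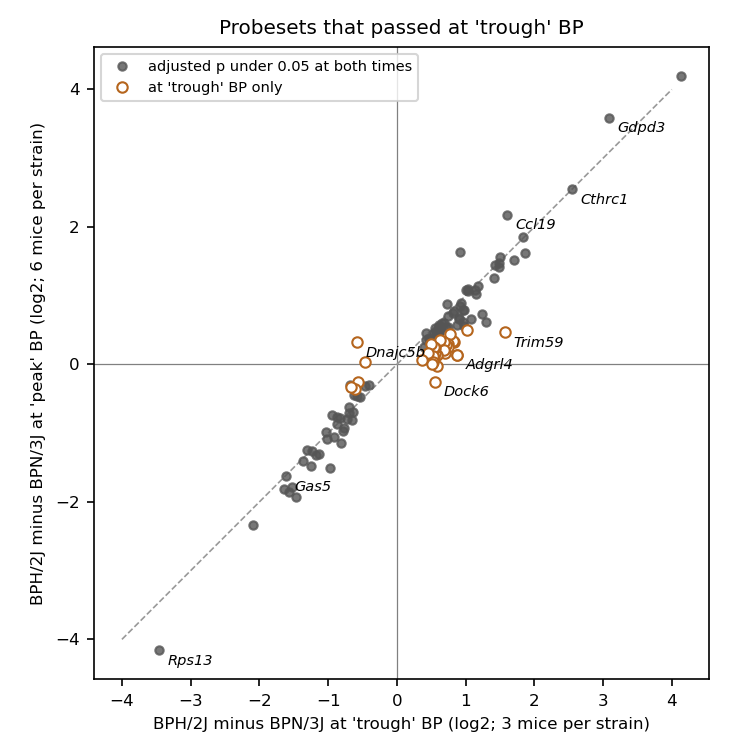
Difference of the strains (log2) at ‘trough’ BP (horizontal axis, 3 mice per strain) and at ‘peak’ BP (vertical axis, 6 other mice per strain) for the 124 probesets that passed at ‘trough’ BP. Filled points passed at both times and open points at ‘trough’ BP only, and the dashed line marks equal values; 120 of the 124 have the same sign at both times.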

How the data were processed

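The authors hybridized RNA of single mice to Affymetrix Mouse Gene 1.0 ST arrays and deposited RMA signals, which are log2 values. The submitters' processing notes name RMA and limma (versions not given in the sources used here). Values were complete for the 34760 probesets (0 missing). By the platform annotation 21640 have 1 symbol (19937 genes), 1321 have several, and the annotation table lacks 11799. By gene ID 21553 were found in a reference table and 0 symbols changed.

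Median signals of the ‘trough’ arrays ran from 6.27 to 6.42. The number of arrays limits the precision. Groups came from the titles.

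A limma 3.58.1 model (R 4.3.3) of 4 groups was fitted to 18 arrays without covariates, for BPH/2J minus BPN/3J at ‘trough’ BP. The model was tested on simulated data. Python 3.11.15 and matplotlib 3.10.9 made the figures. Counts of list members used the brightest probeset of a gene.

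Named were the 15 genes with the largest difference in each direction, up to 4 called members of each list (or the 1 or 2 of smallest p), 6 genes the study measured by qPCR (*Avp*, *Oxt*, *Trh*, *Hcrt*, *Ccl19* and *Zbtb16*), and runs of 3. Predicted genes were counted and not named. Other genes were chosen after their values were seen. The comparison, lists and rule were chosen with earlier results of these data known.

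Alternatives were the 6 ‘trough’ arrays alone, quantile normalization, median centring, dropping the dimmest 40% of probesets, array weights, a prior with trend and robust fit, the brightest or mean probeset per gene, a replicate block, adjustment over probesets with 1 symbol, a difference of 1.5-fold, and each ‘trough’ array left out.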

Additional observations from a re-analysis of the deposited data

Results flagged for a closer look

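Only groups of 4 or more mice were examined for a single mouse apart from the rest, so these values concern the ‘peak’ mice at 47 named probesets called at ‘trough’ BP, 94 groups in all. Chance alone gives such a value in about 1 in 20 groups, and 6 of the 94 held one. In each the gap to the next mouse took most of the range of the group, which was narrow for some genes. *Sycp3* was 5.76 in BPH/2J ‘peak’ mouse 9 (group median 6.80), and *Eif4a3* was 5.73 in BPH/2J ‘peak’ mouse 6 (median 6.81). *Gas5* was 11.73 in BPN/3J ‘peak’ mouse 5 (median 11.44), and *Plxdc1* was 8.85 in BPN/3J ‘peak’ mouse 11 (median 8.29). *Kcnn2* was 8.48 and *Mrpl15* 7.88 in BPH/2J ‘peak’ mouse 8 (medians 8.69 and 7.85).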

How the results depend on the processing

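The number of genes that passed, 122 with 82 higher and 40 lower in BPH/2J, was 33 (22 and 11) with the 6 ‘trough’ arrays alone, 5233 (2488 and 2771) with array weights, which gave BPN/3J mouse 3 a weight of 9.44 (a gene can pass in both directions at different probesets), and 12 (8 and 4) with a replicate block, all 12 among the 122. Median centring left 26 lower genes, and the other settings of the model left each of these counts within 1.5 times. Without 1 array the count ran from 49 to 141, with 30 to 90 higher and 17 to 51 lower. The titles share only numbers between strains, and same-numbered arrays had residual correlations of 0.19 and 0 at ‘trough’ and -0.30 to 0.14 at ‘peak’ BP. At the brightest probeset of the gene *Itpripl2* was -0.02, *Rps13* 0.34 and *Gabarapl2* 0.01. Over all genes named and all settings, 2350 values stayed on their side of the threshold with no called sign turned or, without a test, moved by less than 1 SD. A call was lost in the same direction 194 times and gained 89 times, the 3 signs above turned, and 69 values without a test moved further. The causes were not tested.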
